A study of Mus musculus with 27 samples.

Results

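The farnesoid X receptor (FXR, encoded by *Nr1h4*) is the nuclear receptor that senses bile acids. In the ileum it pairs with the retinoid X receptor RXRα (*Rxra*) on DNA, and bile acids enter the enterocyte through the apical transporter ASBT (*Slc10a2*), bind the cytosolic ileal bile acid-binding protein (*Fabp6*) and leave across the basolateral membrane through the heteromer OSTα/OSTβ (*Slc51a* and *Slc51b*). Ligand-bound FXR is known to induce *Fabp6*, *Slc51a*, *Slc51b*, the hormone gene *Fgf15*, which signals to the liver to lower bile acid synthesis, and *Nr0b2*, which encodes the repressor SHP. *Malrd1* (also called *Diet1*) encodes an enterocyte protein that modulates FGF15 production. These 9 genes were taken by name from the 46078 genes listed in the count tables.

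RNA-Seq had been run on epithelium scraped from the distal ileum of 27 male C57BL/6 mice, 3 in each of 9 groups, on postnatal day 56. One group received sesame oil vehicle and the other 8 received by gavage the dioxin TCDD, an agonist of the aryl hydrocarbon receptor (AhR), repeated at intervals of 4 days over 28 days. The 4 lower doses were 0.01, 0.03, 0.1 and 0.3 µg/kg and the 4 higher doses were 1, 3, 10 and 30 µg/kg. No group carried a genetic change, and all 27 mice were fasted before collection. Mice shared cages, and the labels do not say which.

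Between 12.26 and 17.14 M counts per mouse fell on genes. *Cyp1a1*, the standard AhR target, was at 0 to 0.2112 CPM (counts scaled to a library of 1000000) in vehicle mice and at 1062 to 2279 CPM at 30 µg/kg. All 8 enterocyte markers and all 6 ileal markers were detected in every group. At 30 µg/kg the 3 mice were unlike each other. Mouse 65 had a summed enterocyte marker level of 14600 CPM, the lowest of all mice, and a smooth muscle marker level of 345.4 CPM. Mice 67 and 68 had 30760 and 28570 CPM of enterocyte markers, the highest of all mice. Their smooth muscle markers were at 78.58 and 36.23 CPM. Vehicle mice had 18590 to 19660 CPM of enterocyte and 25.02 to 109.5 CPM of smooth muscle markers. Mouse 58 at 10 µg/kg had 394.1 CPM of smooth muscle markers. Proximal small intestine markers summed to 1824, 4575 and 3895 CPM in mice 65, 67 and 68 (vehicle mice, 1514 to 1694 CPM). Ileal markers summed to 3617, 7013 and 6478 CPM (vehicle mice, 3212 to 4414 CPM). The 8 clock repressor and output genes (*Dbp*, *Nr1d1*, *Per2* and others) summed to 637.1 to 991.2 CPM at 30 µg/kg and 79.95 to 96.24 CPM in vehicle mice. They summed to 413.9 to 633.6 CPM at 1 µg/kg, 527.5 to 687.1 CPM at 3 µg/kg and 557.7 to 801 CPM at 10 µg/kg. Mouse 14 at 0.01 µg/kg had 475.6 CPM, the highest at 0.01 to 0.3 µg/kg. Each of 16 library indexes had been used once in 16 mice (vehicle to 0.3 µg/kg, and mouse 41 at 1 µg/kg), and 11 of them a further time in the other 11 mice (mice 43 and 44 at 1 µg/kg, and all mice at 3 to 30 µg/kg). Reuse of an index is read here from the index letters alone, and outside 1 µg/kg it cannot be told apart from dose.

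*Fabp6* has the best match to the FXR binding site among the promoters at hand. The site is an inverted repeat of 2 half-sites spaced by 1 base (IR-1, searched as AGGTCANTGACCT, a sequence that reads alike on both strands), and it was searched in RefSeq windows (GRCm38.p6) from 250 bases before to 50 bases after each gene start. Windows were at hand for 7 of the 9 genes; *Fgf15* and *Malrd1* had none. With up to 2 mismatches in the 12 fixed positions, 374 of 32851 windows (1.14%) held a match and 4 windows (0.012%) held 2 or more. *Fabp6* was one of those 4. Its stretch is shown because it carries both matches, in capitals, which begin 222 and 142 bases before the start (chr11:43601680-43601796, - strand, 5′ to 3′).
Fabp6: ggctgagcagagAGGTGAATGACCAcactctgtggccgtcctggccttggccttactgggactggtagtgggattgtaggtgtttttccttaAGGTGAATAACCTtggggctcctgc

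The best matches in *Slc51a*, *Slc51b* and *Slc10a2* had 3, 3 and 4 mismatches, levels reached in 11.4%, 11.4% and 56.4% of all windows. They are shown so that the export and uptake genes can be set beside *Fabp6* (chr16:32487938-32487966, chr9:65422940-65422968 and chr8:5105457-5105485, all - strand). Capitals mark every base set against the site, mismatched bases included.
Slc51a: accacgtgAGGACTTTGTCCTtctcttct
Slc51b: cattcgtgGGGTCATTCACCCtggactgg
Slc10a2: tgtggcttAGTTCATTATCATgtcaataa

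The AhR core motif (GCGTG, either strand) was present in the windows of *Nr0b2*, 137 bases before the start, and *Slc10a2*, 21 bases after it, and in 32.4% of all windows. A match is a description of letters and says nothing of binding in these mice.

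Per kilobase of exon, *Fabp6* was by far the most abundant of the genes in vehicle mice, at 3542 ± 374 CPM per kb (SD, n = 3). *Slc51b* (356.4 ± 18.3) and *Slc51a* (146.6 ± 8.64) followed. *Nr1h4* (88.83 ± 3.45), *Slc10a2* (86.35 ± 9.41) and *Malrd1* (80.16 ± 0.843) came next, and the levels of *Slc10a2* overlapped both of its neighbours. *Rxra* (37.98 ± 1.5) and *Fgf15* (18.78 ± 3.6) were lower. *Nr0b2* was at 0.0639 ± 0.0648 CPM per kb.

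The dose at which these genes left the vehicle range was addressed by comparing each dose with vehicle (edgeR quasi-likelihood test, genes were called at 1.5-fold or more with adjusted p no higher than 0.05). At 0.01, 0.03, 0.1 and 0.3 µg/kg 0 of the 8 genes tested were called, where 0% of all 16741 genes tested were called at each dose. At an unadjusted p under 0.05 (edgeR) there were 1, 0, 0 and 0 of the 8, against 699, 591, 1037 and 1247 of all 16741 genes. DESeq2 also called 0 of the 8 at each of these doses. At 1, 3 and 10 µg/kg again 0 of 8 were called by either tool, against 0.591%, 1.11% and 2.53% of all genes. An unadjusted edgeR p under 0.05 was found for 2, 1 and 1 of the 8, and for 2356, 2289 and 2905 of all 16741 genes. At 30 µg/kg 3 of 8 were called, 2 lower (*Fgf15* and *Fabp6*) and 1 higher (*Slc10a2*), where 9.4% of all genes were called. The median log2 fold change at 30 µg/kg was 0.163 over the 8 genes and 0.019 over all genes. A test for any difference among the 9 groups gave an adjusted p of 0.000452 for *Slc51a*, 0.00145 for *Fgf15* and 0.034 for *Slc10a2* (edgeR), and the other 5 genes did not pass, with 9.53% of all genes passing. These libraries were made from scrapings, so fewer cells of a type and less RNA per cell cannot be told apart.

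**Figure D1:**
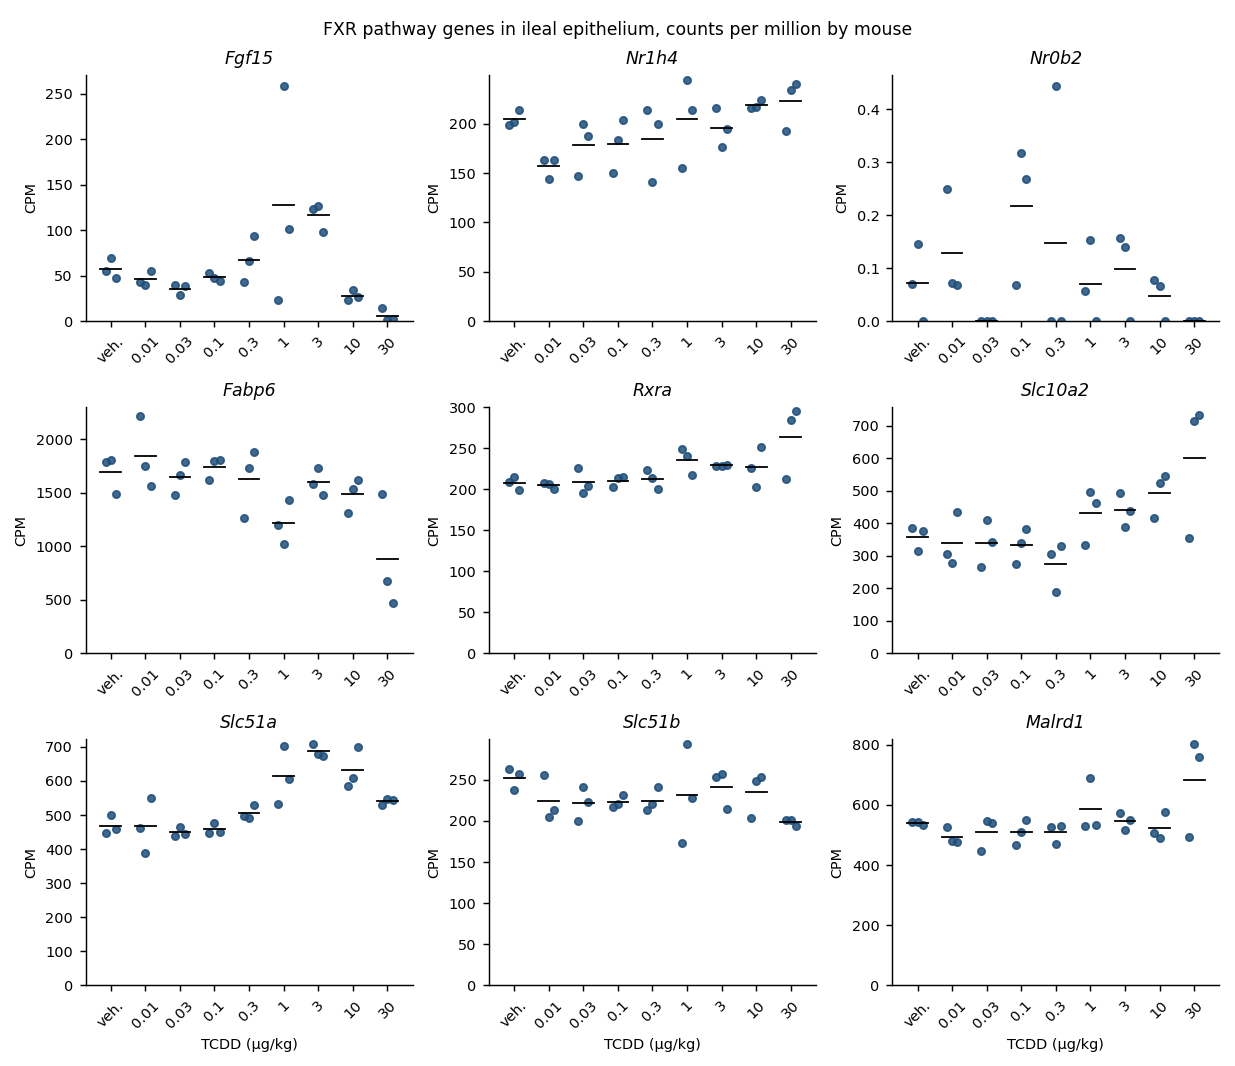
CPM (vertical axes, each from 0) of the 9 genes in every mouse, by TCDD dose (µg/kg, horizontal axes); points are mice and bars are means of 3. At 30 µg/kg 1 mouse keeps *Fabp6* at 1492 CPM while the other two are at 680.2 and 474.5 CPM, and *Slc51a* is highest at 3 µg/kg.

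*Fabp6* (ENSMUSG00000020405, chr11:43596049-43601540 of GRCm38, - strand) had the steepest fall after *Fgf15* among the 8 genes tested. Vehicle mice had 1790, 1810 and 1490 CPM. At 30 µg/kg mouse 65 had 1492 CPM, mouse 67 had 680.2 CPM and mouse 68 had 474.5 CPM. Mice 67 and 68 therefore lay below every other mouse of the study, and mouse 65 lay within the vehicle range. The log2 fold change was -0.943 ± 0.253 (SE; 1.92-fold lower, adjusted p = 0.012, edgeR). It was -1.59 without mouse 65 (adjusted p = 2.32e-06, edgeR), and the call was lost without mouse 67 (-0.788, adjusted p = 0.0857, edgeR) or without mouse 68 (-0.644, adjusted p = 0.0692, edgeR). It was also lost when only the 6 mice compared were fitted (-0.942, adjusted p = 0.177, edgeR) and with index use as a covariate (-0.975, adjusted p = 0.293, edgeR). At 1 µg/kg the mice had 1201, 1019 and 1436 CPM, all below the lowest vehicle mouse, but the change of -0.477 ± 0.251 did not pass (adjusted p = 0.401, edgeR).

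Ordered by mean, *Fabp6* ran from 1843 ± 337 CPM at 0.01 µg/kg through 1741 ± 106 at 0.1 µg/kg, 1697 ± 179 in vehicle mice, 1646 ± 156 at 0.03 µg/kg, 1626 ± 320 at 0.3 µg/kg, 1599 ± 128 at 3 µg/kg, 1487 ± 159 at 10 µg/kg and 1219 ± 209 at 1 µg/kg to 882.2 ± 538 at 30 µg/kg (SD, n = 3 each). Each neighbour in this order overlapped the next, so the order itself is not resolved. The means at 3 and 10 µg/kg lay between those at 1 µg/kg and vehicle, and the values did not step down with dose.

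*Fgf15* fell at the same dose, and at 1 to 10 µg/kg its values lay on both sides of the vehicle range. Its counts are well above zero in most mice, at 692 to 947 in vehicle mice, and were 200, 18 and 25 in mice 65, 67 and 68. In CPM the 30 µg/kg mice had 14.32, 1.392 and 2.035, all below the 54.91, 69.46 and 47.89 of vehicle mice, with a log2 fold change of -3.24 ± 0.633 (adjusted p = 0.00113, edgeR). At 1 µg/kg mouse 41 had 23.46 CPM, below vehicle, and mice 43 and 44 had 258.2 and 101.6 CPM, above it. Mouse 41 is the mouse of that dose in the first use of the indexes. At 3 µg/kg the mice had 123.7, 126.8 and 98.02 CPM, all above vehicle, and at 10 µg/kg they had 23.05, 33.91 and 26.76 CPM, all below. Neither of these passed in the fit over 27 mice (1.017 ± 0.534, adjusted p = 0.421, and -1.037 ± 0.551, adjusted p = 0.346, edgeR). Both were called when only the 6 mice compared were fitted, with log2 fold changes of 1.025 and -1.031. With index use as a covariate, which rests on the 3 mice at 1 µg/kg, the sign turned at 1 and 3 µg/kg (-1.291 and -1.919, adjusted p = 0.574 and 0.392, edgeR) and the change at 10 µg/kg was called (-3.974, adjusted p = 0.038, edgeR).

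Between TCDD doses, *Fgf15* was lower at 30 than at 3 µg/kg by a log2 fold change of -4.26 ± 0.644 (adjusted p = 0.00098, edgeR). It was the 1 gene of the 8 called, against 0.89% of all genes. *Fabp6* changed by -0.858 ± 0.252 in the same comparison (adjusted p = 0.0938, edgeR), and it was called there without mouse 65 (-1.5). From 3 to 10 µg/kg 0 of 8 genes were called, against 0.0418% of all genes, and 1 of the 8, *Fgf15*, had an unadjusted p under 0.05 (-2.05 ± 0.557, adjusted p = 0.347, edgeR); DESeq2 called 0 of 8. The exons of *Fgf15* overlap those of *Gm26793* and *Gm39119* on the other strand, and whether reads were counted by strand is not given in the sources used here.

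*Nr1h4* (ENSMUSG00000047638, chr10:89454234-89533585, - strand), which encodes the receptor itself, did not fall with *Fabp6* and *Fgf15* at 30 µg/kg. It was at 198.5, 201.6 and 213.6 CPM in vehicle mice and at 192.8, 234.5 and 240.4 CPM at 30 µg/kg (mice 65, 67 and 68), so that the 2 mice with the least *Fabp6* and *Fgf15* had more *Nr1h4* than any vehicle mouse. The log2 fold change of 0.12 ± 0.155 did not pass (adjusted p = 0.642, edgeR), and its sign turned with scaling by library size alone (-0.018) and with index use as a covariate (-0.439). At 10 µg/kg all 3 mice, at 216.3, 217.1 and 224 CPM, were above vehicle, with a change of 0.10 ± 0.155 (adjusted p = 0.808, edgeR). At 0.01 µg/kg all 3 mice, at 163, 143.8 and 163.7 CPM, were below vehicle, and the change of -0.38 had an unadjusted p of 0.0217 and an adjusted p of 1 (edgeR). Ordered by mean, *Nr1h4* was lowest at 0.01 µg/kg (156.8 ± 11.3 CPM), then 178.2 ± 27.9, 179 ± 27.2 and 184.7 ± 38.7 CPM at 0.03, 0.1 and 0.3 µg/kg. It was 195.8 ± 20 at 3 µg/kg, 204.5 ± 45.4 at 1 µg/kg, 204.6 ± 7.98 in vehicle mice, 219.1 ± 4.23 at 10 µg/kg and 222.6 ± 25.9 at 30 µg/kg (SD, n = 3 each).

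*Rxra* (chr2:27676440-27762957, + strand), the partner of FXR, was at 208.7, 215 and 198.7 CPM in vehicle mice and at 212.4, 284.1 and 295.8 CPM at 30 µg/kg. Again mouse 65 was in the vehicle range and mice 67 and 68 were above it. The 1.27-fold change (log2 0.35 ± 0.098) had an adjusted p of 0.0164 (edgeR), but was under the 1.5-fold minimum. *Malrd1* (chr2:15526479-16255555, + strand) had 493, 801.8 and 757.7 CPM at 30 µg/kg against 533.6 to 543.9 CPM in vehicle mice, so that mouse 65 was below the vehicle range and mice 67 and 68 above it (0.34 ± 0.134, adjusted p = 0.0804, edgeR). *Nr0b2* was hardly detected: counts ran from 0 to 7 per mouse, 12 of 27 mice including all 3 at 30 µg/kg had 0, and it did not pass the filter on low counts. A count of 0 in those 3 mice allows up to 0.205 to 0.22 CPM (3 counts per library, counting error only), which is above the 0.0724 CPM mean of vehicle mice, so a fall was not detectable at this depth. Leaving out mouse 65 moved every one of the other log2 fold changes at 30 µg/kg away from 0 except that of *Slc51a*. They were -5.09 for *Fgf15*, 0.45 for *Rxra*, 0.50 for *Malrd1*, 0.18 for *Nr1h4*, -0.39 for *Slc51b* and 0.19 for *Slc51a*. The number called was still 3 of 8, while 2508 of all genes tested were called, against 1574 with mouse 65 kept.

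**Figure D2:**
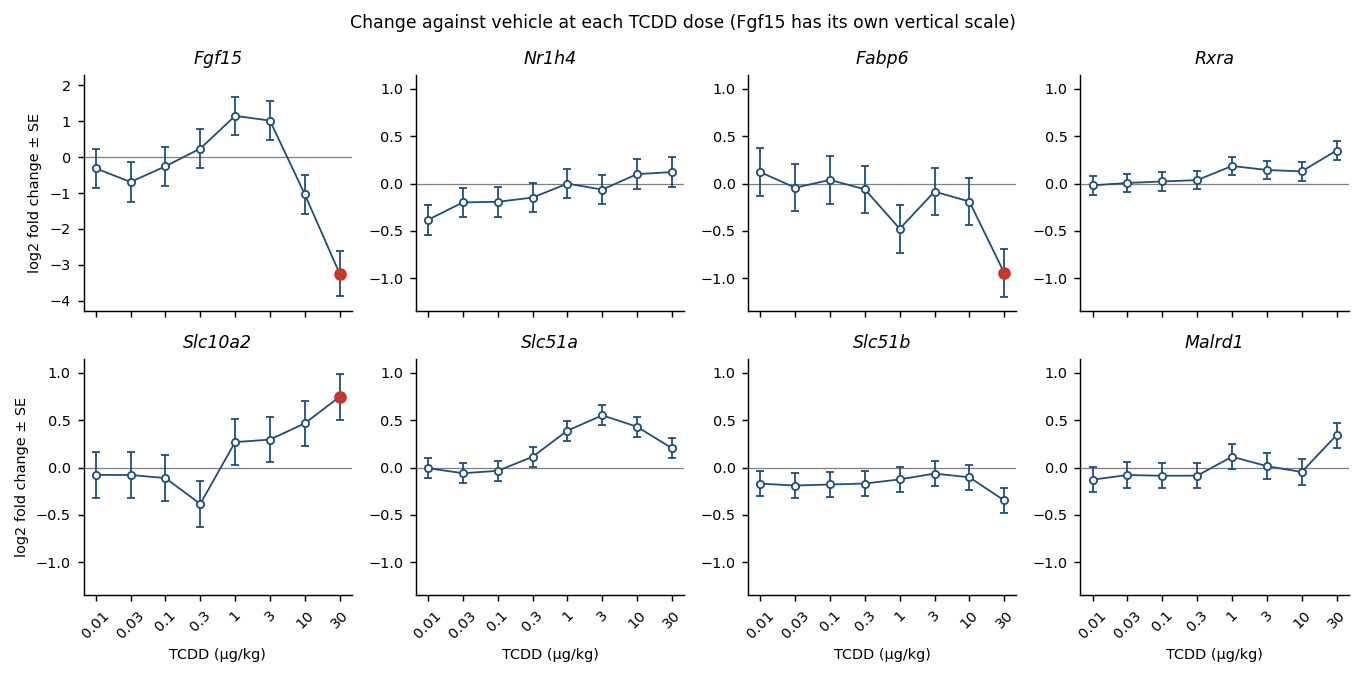
Log2 fold change against vehicle (vertical axes, ± SE from edgeR) for the 8 genes tested, by TCDD dose (µg/kg, horizontal axes); filled red points are called. *Fgf15* changes sign between 3 and 10 µg/kg (1.017 and -1.037), while *Nr1h4* stays between -0.38 and 0.12.

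Among the transporters, uptake and the 2 export subunits differed from each other. *Slc10a2* had 385.1, 313.6 and 376.9 CPM in vehicle mice and 354.8, 716.6 and 732.2 CPM at 30 µg/kg in mice 65, 67 and 68 (log2 fold change 0.75 ± 0.241, adjusted p = 0.0339, edgeR). The call was lost with library size scaling (0.587, adjusted p = 0.0735, edgeR) and in 5 of the 6 fits that left out 1 mouse (0.578 to 0.793), all but the one without mouse 65 (0.984). It was also lost when only the 6 mice compared were fitted (0.745, adjusted p = 0.138, edgeR) and with index use as a covariate (0.227, adjusted p = 0.838, edgeR). *Slc51a* had log2 fold changes of 0.55 ± 0.104 at 3 µg/kg and 0.43 ± 0.104 at 10 µg/kg, which passed on the adjusted p (0.0057 and 0.0193, edgeR) but not on the 1.5-fold minimum. Neither passed on the adjusted p with index use as a covariate (0.254 and 0.133, adjusted p = 0.686 and 0.853, edgeR) or with the clock gene score described further on (0.277 and 0.129, adjusted p = 0.992 and 0.956, edgeR). At 30 µg/kg it was at 529.8, 546 and 544.8 CPM, above the 447.6 to 500.2 CPM of vehicle mice, without passing (0.20 ± 0.104, adjusted p = 0.183, edgeR), and its sign turned with either covariate (-0.093 and -0.117). *Slc51b* at 30 µg/kg had 201, 201.6 and 193.6 CPM, all below the 238.2 to 263.1 CPM of vehicle mice (-0.35 ± 0.132, adjusted p = 0.0704, edgeR), and it was called with index use as a covariate (-0.934, adjusted p = 0.0121, edgeR). In both OST genes mouse 65 lay close to mice 67 and 68. *Slc51a* and *Slc51b* overlap exons of *Pcyt1a* and *Rasl12* on the other strand.

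Ratios of 2 genes within a mouse do not depend on library scaling. They were taken as counts per kb, for 10 pairs over 5 comparisons. With 3 mice against 3 the exact permutation test (two-sided) cannot go below p = 0.1, which is reached when the groups do not overlap, so no ratio could pass a threshold of 0.05. The ratio of *Slc51a* to *Slc51b* did not overlap between vehicle mice and the mice of the 4 upper doses. It was 0.3772, 0.4656 and 0.3961 in vehicle mice, and 0.5297 to 0.6949 in the 12 mice at 1 to 30 µg/kg, every one of them above all vehicle mice. Mouse 65 (0.5844) and mouse 41 (0.6803), the mouse of the first index use, were in this range too. The summed clock repressor and output genes were also above the vehicle range in each of these 12 mice. The part of clock genes, index use and cell markers in this ratio was not tested. At 0.01 to 0.3 µg/kg 6 of 12 mice were above all vehicle mice and 0 below (0.4017 to 0.5711). The highest ratio, 0.5711, was in mouse 14, which also had the highest summed clock repressor and output genes at these doses (475.6 CPM). Mouse 17 had a ratio above vehicle (0.4877) with these clock genes in the vehicle range (90.08 CPM). Mice 27, 33, 35 and 36 had both above the vehicle range, with ratios of 0.4788, 0.5191, 0.4942 and 0.4882 and clock genes at 143.9, 148.4, 254.1 and 203.2 CPM. Mice 20, 26 and 28 had the clock genes above the vehicle range and a ratio within it. Mice 9, 11 and 18 had neither above it. The mean log2 difference of the ratio from vehicle was 0.54, 0.62, 0.54 and 0.55 at 1, 3, 10 and 30 µg/kg (exact permutation p = 0.1 at every dose).

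The ratio of *Fabp6* to *Slc51a* moved the other way. It was 26.69, 24.16 and 21.68 in vehicle mice and below all of these in 12 of 12 mice at 1 to 30 µg/kg, where it ran from 5.814 to 18.8. Mouse 65 had 18.8 and mice 67 and 68 had 8.317 and 5.814. At 0.01 to 0.3 µg/kg 2 of 12 mice were below and 4 above vehicle. The mean log2 difference from vehicle was -0.867, -0.635, -0.617 and -1.31 at 1, 3, 10 and 30 µg/kg (exact permutation p = 0.1 each). Both ratios share *Slc51a*, whose CPM was above all vehicle mice in these 12 mice, so they are not separate patterns. *Fabp6* relative to *Slc51b* overlapped vehicle at each of these doses, with 3 of 12 mice below it. Its log2 differences were -0.33, -0.015, -0.081 and -0.763 (exact permutation p = 0.5, 0.9, 0.6 and 0.3). *Fabp6* relative to *Slc10a2* was below all vehicle mice in 10 of 12.

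*Fabp6* relative to *Fgf15*, both FXR targets, did not move one way with dose. The ratio was 207.9, 166.3 and 198.4 in vehicle mice. At 0.01 to 0.3 µg/kg 7 of 12 mice were above all vehicle mice and 1 below, and all 3 mice at 0.03 µg/kg, at 239.5, 373.3 and 295.9, were above. At 1 µg/kg the mice were split, with 326.4 in mouse 41 against 25.21 and 90.21 in mice 43 and 44. At 3 µg/kg it was 81.86, 87.24 and 96.16, below every vehicle mouse, and at 10 µg/kg 362.2, 288.1 and 385.5, above every one. At 30 µg/kg it was 663.4, 3035 and 1459 in mice 65, 67 and 68, again above every vehicle mouse. *Fgf15* was thus lower relative to *Fabp6* in each of the 3 mice at 30 µg/kg, including mouse 65, where *Fabp6* was in the vehicle range (log2 difference 2.91, exact permutation p = 0.1). *Nr1h4* relative to *Fgf15* was 3.853 to 5.918 in vehicle mice and 17.83, 217.7 and 153.8 at 30 µg/kg (log2 difference 4.14, exact permutation p = 0.1). *Nr1h4* relative to *Slc10a2* was below all vehicle mice in 10 of 12 mice at 1 to 30 µg/kg, with mouse 65 among the 2 that were not.

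**Figure D3:**
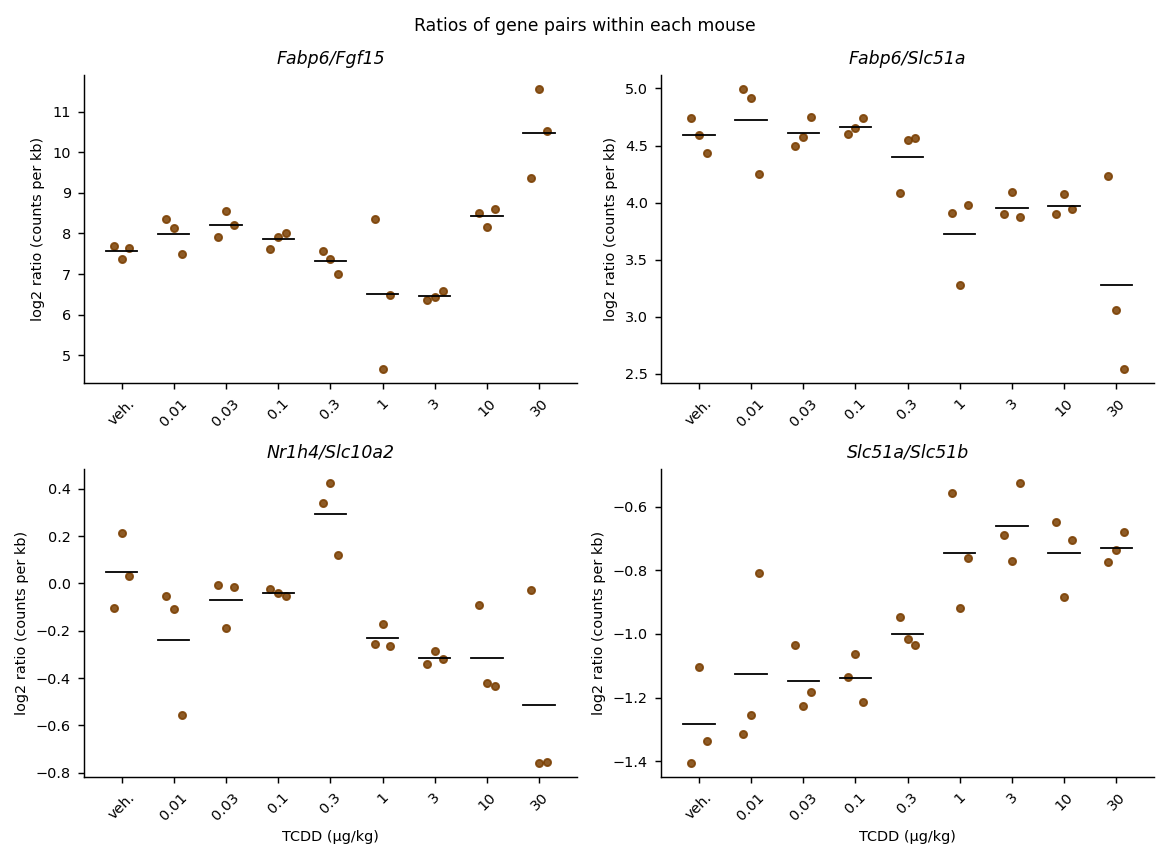
Log2 ratio of counts per kb for 4 gene pairs (vertical axes) in every mouse, by TCDD dose (µg/kg, horizontal axes); points are mice and bars are means of 3. From 1 µg/kg upward all 12 mice are above vehicle for *Slc51a/Slc51b* and below it for *Fabp6/Slc51a*.

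How the genes moved from mouse to mouse within a dose was addressed with log2 CPM minus the dose mean over 27 mice, for 8 pairs (100000 permutations within dose, p-values adjusted over the 8 pairs). *Nr1h4* and *Slc10a2* varied together. Pearson's r was 0.831 (permutation p = 1e-05, the smallest that can be given, adjusted 8e-05) and Spearman's rho 0.842 (permutation p = 1e-05, adjusted 8e-05). Without the 2 mice farthest from the median of *Slc10a2*, r was 0.806, and without the 3 mice at 30 µg/kg it was 0.861. Split by index use, r was 0.868 over 15 mice (first use, mouse 41 left out) and 0.842 over 11 mice (second use). *Nr1h4* with *Slc51a* gave r = 0.521 (permutation p = 0.00352, adjusted 0.0141) and rho = 0.604 (permutation p = 0.00102, adjusted 0.00408), with r = 0.577 without the 2 farthest mice; within index uses r was 0.333 and 0.508 and no longer passed (permutation p = 0.0866 and 0.0144, adjusted 0.231 and 0.0578). Summed enterocyte, smooth muscle and crypt markers gave r of 0.0439, -0.459 and -0.32 with *Nr1h4* and 0.384, -0.42 and -0.166 with *Slc10a2*. With *Fabp6* the same markers gave r of -0.598, 0.525 and 0.00155, and of 0.151, 0.481 and 0.0306 without the 2 mice farthest in each marker sum. Of these 9 relations 0 passed after adjustment (lowest adjusted permutation p = 0.234 for Pearson's r and 0.283 for Spearman's rho). The part of these markers in the *Nr1h4* relation was not tested further.

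For *Fabp6* 0 of 4 relations passed. With *Fgf15*, r was 0.518 (permutation p = 0.259, adjusted 0.397) and rho 0.432 (permutation p = 0.108, adjusted 0.172), and r was -0.0579 without the 2 farthest mice. Without the mice at 30 µg/kg r was 0.0348 and rho 0.251, and split by index use r was 0.432 over 15 mice (first use, none at 30 µg/kg) and 0.702 over 11 mice (second use). None of these values passed (lowest adjusted permutation p = 0.545 for r and 0.505 for rho). With *Slc10a2*, r was -0.502 (permutation p = 0.199, adjusted 0.397) and rho -0.324 (permutation p = 0.237, adjusted 0.316), and without the 2 farthest mice r was 0.0237.

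**Figure D4:**
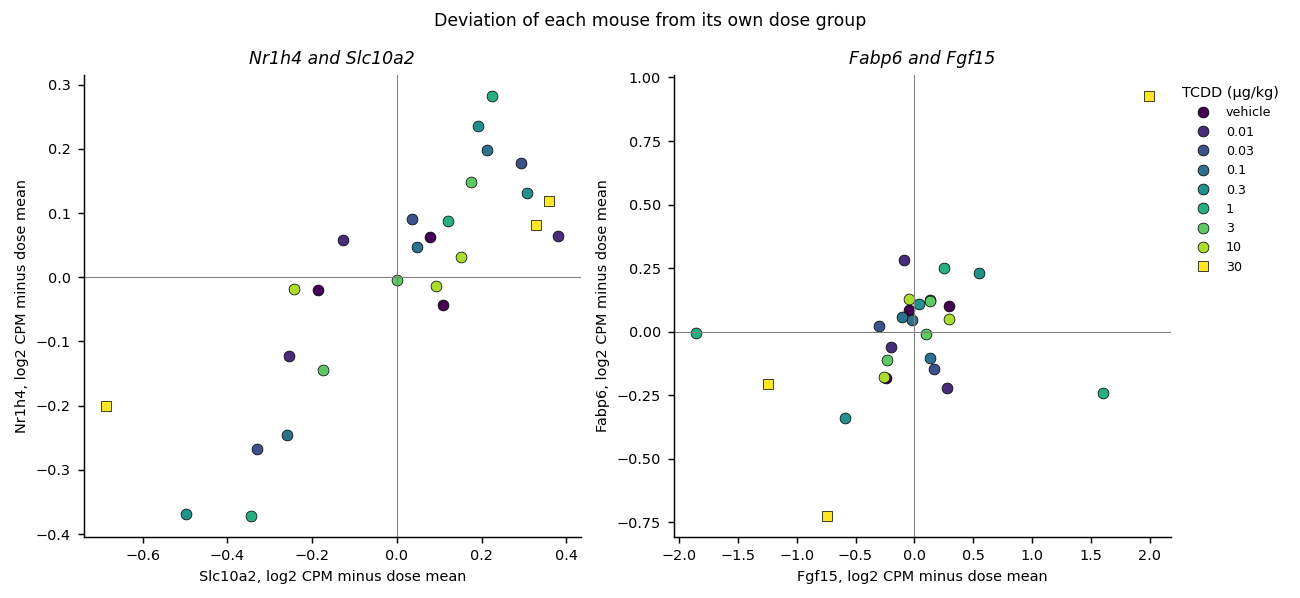
Deviation of each mouse from its dose mean (log2 CPM, both axes), for *Nr1h4* against *Slc10a2* (left, r = 0.831) and *Fabp6* against *Fgf15* (right, r = 0.518); colour is TCDD dose and squares are mice at 30 µg/kg. The left points rise together at all doses, while on the right 2 of the 3 squares lie at the top and bottom ends.

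Over the 27 mice, dose means kept, the tested genes whose log2 CPM was most like *Fabp6* were *Gsdmc2* (r = 0.889), *Gsdmc3* (0.861), *Car9* (0.845), *Zmynd19* (0.84) and *Gpx2* (0.837). *Gsdmc2* and *Gsdmc3* are paralogs whose reads may be shared. The genes most like *Nr1h4* were *Jarid2* (0.821), *Ptprd* (0.821), *Atp2b1* (0.817), *Slc10a2* (0.792) and *Slit2* (0.789), and those most like *Fgf15* were *Gm26793* (0.866), which overlaps it, *Vmp1* (0.791), *Caml* (0.785), *Axin2* (0.784) and *Car12* (0.783). *Fabp6* ran against *Rxra* (-0.83), *Malrd1* (-0.759) and *Slc10a2* (-0.648), less so against *Nr1h4* (-0.479) and *Slc51a* (-0.256). It ran with *Fgf15* (0.673) and *Slc51b* (0.382). Mice 67 and 68 had the least *Fabp6* of all mice and the most *Rxra*, *Malrd1* and *Slc10a2*. These r values were not computed without them. They describe likeness over mice that share dose, library preparation and depth.

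Other genes of the pathway were read from 4 lists, whose counts at 30 µg/kg stand against 9.4% of all 16741 genes called at that dose, so that 1 call in a list of about 10 genes is the share found over all genes. Of the FXR partners and cofactors, 1 of 11 tested was called higher at 30 µg/kg and 0 lower: *Ppargc1a*, a coactivator of FXR, with a log2 fold change of 1.32 ± 0.254 (adjusted p = 0.00103, edgeR). The list's median was 0.107, against 0.019 over all genes. Of other FXR-responsive intestinal genes, 1 of 7 was higher and 3 were lower (median -0.392). *Abcc2*, an apical efflux pump for conjugates, rose by 2.35 ± 0.352 (adjusted p = 8.13e-05, edgeR). *Nos2*, *Il18* and *Car12*, genes of epithelial defence and ion balance, fell by 1.05, 0.746 and 0.733 on the log2 scale (adjusted p = 0.000501, 0.0374 and 0.0099, edgeR). *Abcc2* was called higher from 1 µg/kg onward (1.788, 2.212 and 1.979 at 1, 3 and 10 µg/kg) and *Nos2* lower from 3 µg/kg onward (-0.732 and -0.686 at 3 and 10 µg/kg).

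Of the regulators of ileal bile acid genes, 2 of 13 were called higher at 30 µg/kg and 0 lower (median 0.108), again where 9.4% of all genes were called. *Klf15*, a repressor of *Fgf15* in the ileum, rose by 1.94 ± 0.432 (adjusted p = 0.00324, edgeR), and *Ppara*, the fatty acid receptor, by 0.91 ± 0.119 (adjusted p = 1.7e-05, edgeR). Of the other receptors and handling genes, 2 of 11 were higher and 1 lower (median 0.174): *Cyp27a1*, the sterol 27-hydroxylase, rose by 2.66 ± 0.269 (adjusted p = 9.55e-07, edgeR) and *Nr1i3*, the receptor CAR, by 1.55 ± 0.459 (adjusted p = 0.0214, edgeR), and *S1pr2*, a receptor for conjugated bile acids, fell by 1.44 on the log2 scale (adjusted p = 0.00862, edgeR). Among the marker lists at 30 µg/kg, read against the same 9.4%, 2 of 6 ileal markers were higher (*Cubn* and *Pyy*), 2 of 6 proximal small intestine markers were higher (*Fabp1* and *Slc5a1*) and 1 lower (*Slc40a1*), 2 of 7 crypt markers were lower (*Lgr5* and *Top2a*) and 1 of 6 lymphocyte and plasma cell markers was lower (*Jchain*). Of 8 enterocyte, 6 smooth muscle and 2 colon markers tested, 0 were called. Their part in the values of the FXR pathway genes was not tested. All 8 clock repressor and output genes were higher and 2 of 3 clock activator genes lower at 30 µg/kg. With a score of these 11 clock genes in the fit, 0 of the 8 FXR pathway genes were called at that dose, with *Fgf15* at -3.16 (adjusted p = 0.326, edgeR) and *Fabp6* at -0.83 (adjusted p = 0.559, edgeR). Only 14 genes of all those tested were then called.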

How the data were processed

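The deposited files hold raw read counts per Ensembl gene, 1 file per mouse, with no normalization by the authors. The submitters' processing notes name FastQC 0.11.3, Trimmomatic 0.33, TopHat2 2.1.0, SAMtools 1.2.0, HTSeq 0.6.1 and the GRCm38 build. Reads on no gene were 44.48 to 49.52% of uniquely aligned reads, and ambiguous ones 0.61 to 1.02%; both were left out. Symbols, lengths and positions came from a GRCm38 annotation.

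Counts were fitted in edgeR 4.0.16 (TMM, filterByExpr, quasi-likelihood test, 27 mice in 9 groups), with Benjamini-Hochberg adjustment over 16741 genes within each comparison. CPM use TMM-scaled library sizes. Ratios used a prior count of 0.5. Alternatives included DESeq2 1.42.0. The fits and permutation tests were tested on simulated data. Genes named were the 9 chosen, list genes called at 10 or 30 µg/kg, and the 5 genes most like *Fabp6*, *Nr1h4* and *Fgf15*. The 9 genes, the lists and the clock score were chosen with earlier results of these data known. Replicates are mice. Chi-square tests between mice of the same group found no pair of libraries alike within sampling noise.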

Additional observations from a re-analysis of the deposited data

How the results depend on the processing

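Of 788 alternative values, 734 kept their direction and call, stayed within 1.5 times (counts of genes) or moved by less than 1 SD (ratios). No paired analysis was possible because the labels carry no replicate number shared between doses. Leaving out each mouse in turn, 0 to 1 of the 8 FXR pathway genes tested were called at 3 µg/kg. The 1 was *Slc51a*, without vehicle mouse 3. At 30 µg/kg 1 to 3 of the 8 were called, and at 30 against 3 µg/kg 1 to 2. In all, 67 to 225, 878 to 2508 and 47 to 694 genes were called in these 3 comparisons. Log2 fold changes of *Fabp6* at 30 µg/kg were -1.586 to -0.644, and its call was lost without mouse 67 or 68. Fitting only the 6 mice compared called 1 of the 8 at each of 3, 10 and 30 µg/kg (*Fgf15* each time). In all, 344, 366 and 667 genes were called in these fits. At 30 µg/kg *Fabp6* and *Slc10a2* were no longer called (-0.942 and 0.745). With no fold minimum, 1 of the 8 passed at 3 and 1 at 10 µg/kg (*Slc51a*), against 285 and 636 genes in all. With the clock score as a covariate 0 of the 8 were called at 30 µg/kg (*Fabp6* -0.827, *Fgf15* -3.163), against 14 genes in all. *Slc51a* turned to -0.117. Index use as a covariate rests on the 3 mice at 1 µg/kg. With it, 1 of the 8 was called at 10 µg/kg (*Fgf15*), against 48 genes in all. At 30 µg/kg 2 of the 8 were called, against 482 genes in all. There *Slc51b* was called (-0.934), and *Fabp6* and *Slc10a2* lost their calls (-0.975 and 0.227). Signs turned for *Fgf15* at 1 and 3 µg/kg (-1.291 and -1.919). They also turned for *Nr1h4* at 10 and 30 µg/kg (-0.461 and -0.439) and *Slc51a* at 30 µg/kg (-0.093). With library size alone *Nr1h4* at 30 µg/kg was -0.018, as the median of all genes moved from 0.019 to -0.111 and the share of calls that were higher from 57.7% to 36.6%. DESeq2 called 19 genes in all from 3 to 10 µg/kg (edgeR, 7) and 246 from 3 to 30 µg/kg (edgeR, 149).

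Pearson's r turned without the 2 farthest mice for *Fabp6* with *Fgf15* (-0.0579) and *Slc10a2* (0.0237) and for *Nr1h4* with *Fgf15* (-0.0623). It turned for *Fabp6* with *Slc51a* under library size alone (0.214), and for *Nr1h4* with *Fgf15* within the index uses (-0.292 and -0.488) and with dose means kept (-0.208). Tests were passed with dose means kept for *Fabp6* with *Fgf15* (0.673) and *Slc10a2* (-0.648), and without the 2 farthest mice for *Fabp6* with *Slc51b* (0.405), and lost for *Nr1h4* with *Slc51a* within the index uses (0.333 and 0.508). The cause of these changes was not tested. The alternative without the 30 µg/kg mice was chosen after seeing the data.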
